A study of Mus musculus with 9 samples.

Results

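The genes for the protein components of the cytosolic ribosome were followed across 9 adipose tissue libraries from male C57BL/6J mice taken at day 21. Members were taken by name: protein-coding genes called Rpl or Rps with a digit, together with Rplp0, Rplp1, Rplp2 and Rpsa. S6 kinases and genes whose names carry -ps were left out. These steps found 77 members among the 3958 genes of the deposited count table, 45 of the large subunit and 32 of the small subunit. Another 9 genes with such names fell outside, namely 5 processed pseudogenes, 1 protein-coding gene named as a pseudogene (Rps12-ps3) and 3 S6 kinases.

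C57BL/6J is a common inbred laboratory strain. The libraries form 3 groups of 3: CPX (libraries 4, 6 and 8), MPX (2, 5 and 7) and EA (5, 7 and 8, titled APX), the group labelled with EA treatment. Electroacupuncture passes a current through acupuncture needles, and the series title concerns its effect on adipose gene expression in obese mice on a high-fat diet. The design text lists a normal diet group (ND), a high-fat diet group (HFD) and a high-fat diet group with EA, but the labels do not say whether CPX or MPX stands for the normal diet. The fat depot is not named either, and no label says that the libraries came from separate mice, so p-values measure only the spread between libraries. The mice carry no stated transgene or deletion in any group.

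A cytosolic ribosome joins a small subunit, which reads the messenger RNA, with a large subunit, which forms the peptide bond, and each subunit carries many different proteins around a core of ribosomal RNA. The messenger RNAs of these proteins are abundant in nearly all cells and typically begin with an uninterrupted run of pyrimidines at their cap, the terminal oligopyrimidine tract, through which the mTORC1 pathway and the protein LARP1 control their translation. Cells need the proteins in near equal amounts, and adipose tissue holds adipocytes beside immune, vascular and stromal cells that all express them.

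The start regions below show how alike and how different these genes are at their beginning. Each sequence runs 5′ to 3′ over the 80 bases before and the 20 bases from an annotated start, from RefSeq on GRCm38.p6, whose promoter table held 57 of the 77 members. Capitals at the start mark a pyrimidine tract, defined as C followed by at least 4 bases that are C or T. Other capitals mark 1 of 2 motifs searched on both strands, AAGATGG (read as CCATCTT on the other strand), the motif of the factor YY1, and CCGGAAG, read there as CTTCCGG, an ETS family motif. The windows are Rps6 at chr4:86857348-86857447 (minus strand), Rplp2 at chr7:141447571-141447670 (plus), Rpl35a at chr16:33056402-33056501 (plus, 1 of 3 listed starts), Rps27 at chr3:90213629-90213728 (minus), its near-identical retrocopy Rps27rt at chr9:114982720-114982819 (minus), the paralog Rps27l at chr9:66946006-66946105 (plus, 1 of 2 listed starts) and the paralog Rpl7l1 at chr17:46782637-46782736 (minus). The first 3 show tracts of different length and are not a sample of the members, and the other 4 are members whose levels left the common pattern. Where several starts are listed, one that opens with a tract was shown if there was one.
Rps6: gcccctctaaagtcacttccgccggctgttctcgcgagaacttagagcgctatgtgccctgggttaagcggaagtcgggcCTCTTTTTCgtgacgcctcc
Rplp2: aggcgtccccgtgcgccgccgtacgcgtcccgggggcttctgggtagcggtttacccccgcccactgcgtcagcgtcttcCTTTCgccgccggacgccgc
Rpl35a: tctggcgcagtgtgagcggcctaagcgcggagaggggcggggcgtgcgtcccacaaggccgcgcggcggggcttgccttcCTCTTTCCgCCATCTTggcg
Rps27: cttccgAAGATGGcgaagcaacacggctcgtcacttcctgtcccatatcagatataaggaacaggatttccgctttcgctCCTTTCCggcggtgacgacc
Rps27rt: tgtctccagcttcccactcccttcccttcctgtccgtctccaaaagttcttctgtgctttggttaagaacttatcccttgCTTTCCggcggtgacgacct
Rps27l: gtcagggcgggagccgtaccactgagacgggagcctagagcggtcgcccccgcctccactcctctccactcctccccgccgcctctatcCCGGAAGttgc
Rpl7l1: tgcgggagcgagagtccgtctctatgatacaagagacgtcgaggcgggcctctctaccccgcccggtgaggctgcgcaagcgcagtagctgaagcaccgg

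The Rps6 window opened its transcript with an unbroken tract of 9 pyrimidines, Rpl35a with 8, Rps27 with 7, Rps27rt with 6 and Rplp2 with 5. Rps27l and Rpl7l1 had no such tract at the start shown. An AAGATGG motif lay in the Rps27 and Rpl35a windows, and a CCGGAAG motif in that of Rps27l. Over the 32851 promoters of the table, 2.51% began with such a tract, 1.80% held the AAGATGG motif in the same 100 bases and 5.32% the CCGGAAG motif. A match or its absence describes these letters only.

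The table holds only abundant genes, the lowest with 8471 counts over the 9 libraries, so the listed counts, 12115183 (CPX 6) to 14208853 (MPX 7) per library, are not sequencing depths. The least abundant member, Rpl7l1, ranked 3257 of 3958 by total count, and all 77 members passed the filter on low counts. No marker of retina, T cells, skeletal muscle or epithelium was among the listed genes (0 of 9, 9, 8 and 6), while all 15 adipocyte markers were, although the extraction text in the labels speaks of retinas. CPX 4 and CPX 6 stood apart from the other libraries and from each other. The summed level of 7 listed B cell markers was 3177 CPM in CPX 6 against 10.4 in CPX 4, that of 15 adipocyte markers 9039 CPM against 101121, and mitochondrially encoded transcripts took 4.13% against 11.8% of listed counts. Values in CPM are counts per 1000000 listed counts after scaling of the libraries with TMM factors.

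The ribosomal protein genes moved as a block between libraries. That block split the CPX libraries, while its mean was higher in every EA library than in any MPX library. Relative to each gene's mean over the 9 libraries on the log2(CPM + 1) scale, the 77 members averaged 1.10 in CPX 4 and 1.14 in CPX 6, but -0.69 in CPX 8. They averaged -0.33, -0.90 and -0.61 in MPX 2, 5 and 7, and -0.27, 0.02 and 0.55 in EA 5, 7 and 8. On this scale, after TMM scaling, the CPX group thus held both the 2 highest libraries and 1 of the 3 lowest. CPX 4 and CPX 6 both lay above all 7 other libraries for 71 members, the exceptions being Rpl17, Rpl28, Rpl36, Rpl7a, Rps27a and Rps27l. CPX 8 lay below the highest MPX library for 62 members and below every EA library for 69. Within EA, library 8 was the highest for 75 members and library 5 the lowest for 72. Within MPX, library 5 was the lowest for 76 members and library 2 the highest for 72. The members averaged 1.10 in CPX 4, where B cell markers were near 0, and 1.14 in CPX 6, where these markers were abundant. These averages follow TMM scaling, and by share of listed counts the members were lower in CPX 4 (5.51%) than in CPX 6 (8.62%). Plasma cell markers summed to 3218 CPM in CPX 4 and 22275 CPM in CPX 6. The part of these cells in the members' levels was not tested.

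**Figure D1:**
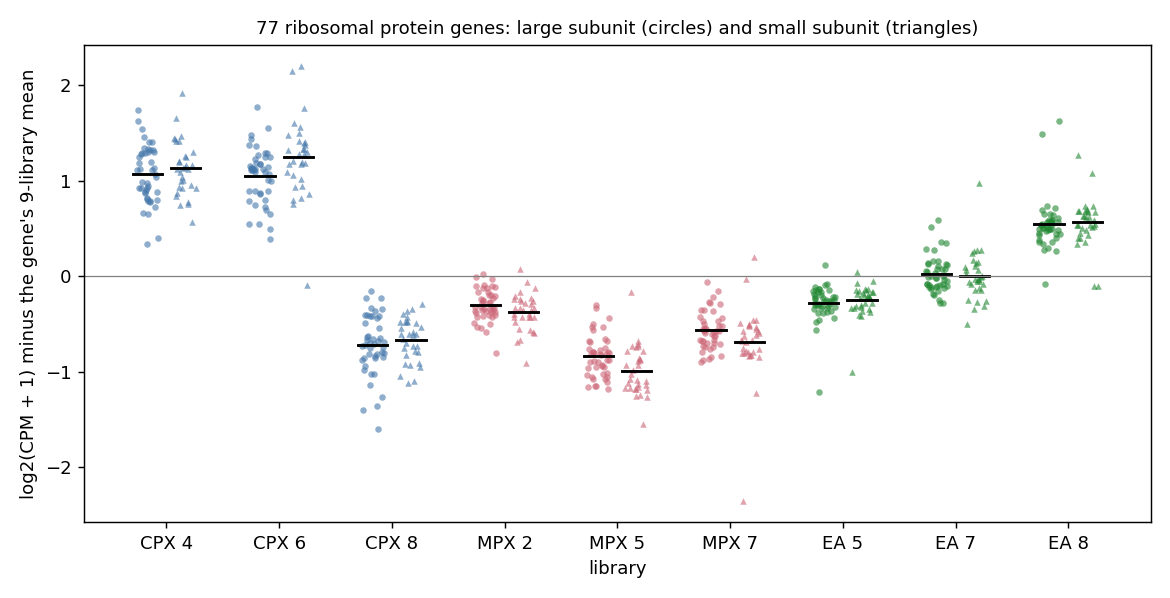
Level of each of the 77 ribosomal protein genes in each library, as log2(CPM + 1) minus the gene's mean over 9 libraries (y axis), with circles for 45 large subunit genes, triangles for 32 small subunit genes and bars for the mean of each. CPX 4 and CPX 6 average 1.10 and 1.14, whereas CPX 8 averages -0.69, within the MPX range.

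The share of listed counts that fell in the members ran from 1.83% in MPX 5 to 8.62% in CPX 6. It was 5.51%, 8.62% and 2.17% in CPX 4, 6 and 8, 2.74%, 1.83% and 2.21% in MPX 2, 5 and 7, and 3.02%, 3.84% and 5.54% in EA 5, 7 and 8. Every EA library exceeded every MPX library, and CPX spanned both. By this share CPX 4 lay just below EA 8, whereas after TMM scaling, with a factor of 0.753 in CPX 4, the members' mean was higher in CPX 4. The place of CPX 4 beside EA 8 thus depended on the scaling. The means were 5.43% ± 3.23 in CPX, 2.26% ± 0.458 in MPX and 4.13% ± 1.28 in EA (SD, n = 3). The widest 95% Wilson interval of a single library reached 0.0158 percentage points to each side, so counting error, the only error it covers, is far below the spread between libraries. In bulk tissue, fewer cells of a type and less RNA per cell cannot be told apart.

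The genes of the stalk proteins of the large subunit showed this order of libraries in part. Rplp0, the base of the stalk that recruits elongation factors (chr5:115559467-115563727 on mm10), was at 2132, 3295 and 910.3 CPM in CPX 4, 6 and 8, 863, 662 and 757 CPM in MPX 2, 5 and 7, and 1025, 1117 and 1797 CPM in EA 5, 7 and 8. Rplp1 (chr9:61913284-61914542), an acidic stalk protein, was at 1764, 1593 and 391 CPM in CPX 4, 6 and 8, 802, 487 and 634 CPM in MPX 2, 5 and 7, and 739, 929 and 1345 CPM in EA 5, 7 and 8. Rplp2 (chr7:141447370-141451585), its partner in the stalk, was at 1154, 796 and 289.8 CPM in CPX 4, 6 and 8, 440.4, 297 and 343 CPM in MPX 2, 5 and 7, and 374, 438 and 609 CPM in EA 5, 7 and 8. For all 3 genes CPX 4 and CPX 6 were the highest libraries. Rplp0 in every EA library exceeded every MPX library, while Rplp1 and Rplp2 overlapped between EA and MPX. Rplp1 and Rplp0 had the highest mean levels per kilobase of the large subunit genes, 1934 and 841 CPM per kb. CPX 8 had the lowest level of Rplp1 and of Rplp2 among all 9 libraries.

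Among small subunit genes, Rpsa encodes a ribosomal protein also known as the laminin receptor, and lies at chr9:120127689-120132369. Rpsa stood at 2599.6, 3595 and 818 CPM in CPX 4, 6 and 8, 744, 514 and 677 CPM in MPX 2, 5 and 7, and 1006, 1159.5 and 1887 CPM in EA 5, 7 and 8. Rps6 (chr4:86854660-86857412), the ribosomal protein that S6 kinases phosphorylate downstream of mTORC1, was at 1542, 2078 and 505 CPM in CPX 4, 6 and 8, 465, 309 and 397 CPM in MPX 2, 5 and 7, and 600.0, 719 and 1061 CPM in EA 5, 7 and 8. In both genes EA and MPX did not overlap, and the 3 CPX libraries all exceeded the highest MPX library, CPX 8 only narrowly. Their fold range from the lowest to the highest library was 6.99 for Rpsa and 6.72 for Rps6, against a median of 4.84 over all members. Rps3a1 and Rps15, structural proteins of the small subunit, had its highest mean levels per kilobase, 1125 and 891 CPM per kb. Rps3a1 was at 2092, 2406 and 639 CPM in CPX 4, 6 and 8, 691, 416 and 535 CPM in MPX 2, 5 and 7, and 765, 998 and 1352 CPM in EA 5, 7 and 8. Rps15 was at 1143, 881 and 281 CPM in CPX 4, 6 and 8, 416, 269 and 335 CPM in MPX 2, 5 and 7, and 439.8, 521 and 766 CPM in EA 5, 7 and 8. Both were highest in CPX 4 and CPX 6, and in both every EA library lay above every MPX library.

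EA was compared with MPX, the question being how tissue with EA treatment differs from a group without it. By the design text, EA differs in diet too from whichever of MPX and CPX had the normal diet. As the labels do not say which that is, diet and EA treatment cannot be told apart here. Ribosomal protein genes were higher in EA for 75 of 77 members, where 51.4% of all genes had a positive difference. The median fitted log2 difference was 0.71, 1.64-fold, against 0.01 over all genes, and it was 0.47 without EA 8. The EA and MPX values did not overlap, with EA higher, in 50 of 77 members, against 21.5% of all genes, and with EA lower in 0 members, against 19%. With edgeR's quasi-likelihood test, 0 of 3958 genes (0%) passed an adjusted p of 0.05, and the smallest adjusted p of a member was 0.775. At an unadjusted p below 0.05, 4 members were higher (2.1% of all genes were) and 0 lower (3.01%). The 4 were Rpl7a, Rpl17, Rps27 and Rps27a, which are also among the members that departed most from the common order of libraries. DESeq2 called 49 genes and limma voom 0, of which 0 were members in either (DESeq2 called 0.533% of all genes tested higher and 0.711% lower).

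The large subunit members with the smallest p were Rpl7a, Rpl17 and Rpl12. Rpl7a, a large subunit protein, stood at 112, 147 and 36.2 CPM in CPX 4, 6 and 8, 60.7, 44.7 and 72.9 CPM in MPX 2, 5 and 7, and 80.3, 133 and 249 CPM in EA 5, 7 and 8. All 3 EA libraries were above MPX, and EA 8 was above every CPX library as well. Its difference was 1.38 on the log2 scale (SE 0.56), 2.60-fold, with an edgeR adjusted p = 0.775. Rpl17, which lines the tunnel through which the new chain leaves, was at 186, 296 and 74.4 CPM in CPX 4, 6 and 8, 60.0, 50.3 and 56.9 CPM in MPX 2, 5 and 7, and 70.7, 94.6 and 327 CPM in EA 5, 7 and 8. EA 8 was more than 3 times as high as EA 7, and the gene's difference, 1.56 (SE 0.65, edgeR adjusted p = 0.775), the largest of the large subunit, was 0.57 without EA 8. Rpl12, at the base of the stalk, was at 806, 1601 and 260.1 CPM in CPX 4, 6 and 8, 313, 209.9 and 250.3 CPM in MPX 2, 5 and 7, and 427, 594 and 759 CPM in EA 5, 7 and 8. Its EA libraries exceeded its MPX libraries by 1.20 (SE 0.58, edgeR adjusted p = 0.775), without overlap. The smallest large subunit difference was that of Rpl41, a very short basic protein, at 0.11 (SE 0.62). Rpl41 had a mean of 605 ± 51.5 CPM over the MPX libraries (SD, n = 3), and over EA it was 654 ± 156 CPM.

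Of the small subunit, Rps27, Rps27a and Rps7 had the smallest p. Rps27, a zinc finger protein, had the largest difference of any member, 1.96 (SE 0.79, edgeR adjusted p = 0.775), and its values are given with its copies further on. Rps27a, made as a fusion with ubiquitin, was at 291, 780.1 and 111 CPM in CPX 4, 6 and 8, 105, 57.3 and 72.0 CPM in MPX 2, 5 and 7, and 83.8, 334 and 360.1 CPM in EA 5, 7 and 8. EA 7 and EA 8 were far above EA 5, which lay among the MPX libraries. Its difference was 1.73 (SE 0.75, edgeR adjusted p = 0.775). Rps7, known to bind the p53 regulator MDM2, was at 979.5, 1435 and 325 CPM in CPX 4, 6 and 8, 348, 226 and 286 CPM in MPX 2, 5 and 7, and 467, 623 and 826 CPM in EA 5, 7 and 8. Its 3 EA libraries were all above MPX, by 1.15 (SE 0.52, edgeR adjusted p = 0.775). Of the genes named for their role, Rpsa differed by 1.07 (SE 0.54) and Rps6 by 1.02 (SE 0.51). The stalk genes differed by 0.79 (SE 0.48) for Rplp0, 0.65 (SE 0.55) for Rplp1 and 0.39 (SE 0.48) for Rplp2. Rps27l, with -0.13, and Rpl21, with -0.15, were the 2 members with a negative difference.

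B cell markers also differed between these groups: the 7 listed ones summed to 551, 842 and 1687 CPM in EA 5, 7 and 8 and to 4.31 to 18.3 CPM in MPX. EA 8, the highest EA library for the members, was the highest for these markers too, and for macrophage and plasma cell markers. The 5 listed plasma cell markers, mostly immunoglobulin genes, summed to 2420.5, 1766 and 7746 CPM in EA 5, 7 and 8 and to 773, 1451 and 1324 CPM in MPX 2, 5 and 7, without overlap. The 9 macrophage markers summed to 3785, 2785 and 6657 CPM in EA 5, 7 and 8 and to 3988, 1367 and 1858 CPM in MPX 2, 5 and 7, so MPX 2 lay above EA 5 and EA 7 and the groups overlapped. Other markers went down: 13 of 15 adipocyte markers were lower in EA and 2 higher, with a median of -0.51. Of these 15, EA lay wholly below MPX in 8 (19% of all genes). All 8 endothelial markers were lower in EA, with a median of -0.33, and 2 lay wholly below MPX. The part of these cell types in the members' difference was not tested. With EA and MPX alone in the fit, 50 members had an unadjusted p below 0.05 and were higher, against 16.2% of all genes, and 0 members passed after adjustment (smallest 0.0656), while edgeR called 84 genes.

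MPX was compared with CPX, both without EA treatment by the labels. Every one of the 77 members was lower in MPX, against 59.3% of all genes. The median difference was -1.32, 2.50-fold lower, against -0.11 over all genes. MPX lay wholly below CPX in 15 members (7.71% of all genes) and wholly above it in 0 (8.46%). Again 0 of 3958 genes (0%) passed the edgeR threshold, with a smallest adjusted p of 0.362 for a member. At an unadjusted p below 0.05, 56 of 77 members were lower, against 8.21% of all genes, and 0 higher, against 4.98%. DESeq2 called 201 genes, among them 27 members, all lower (3.35% of all genes tested were called lower and 1.75% higher), and limma voom called 0.

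Rpl37, Rpl35a and Rpl29 had the smallest p of the large subunit. Rpl37, a zinc-binding protein, was at 483, 462 and 168 CPM in CPX 4, 6 and 8, 153, 94.1 and 118 CPM in MPX 2, 5 and 7, and 145, 171 and 277 CPM in EA 5, 7 and 8. Its difference was -1.61 (SE 0.44, edgeR adjusted p = 0.362). Rpl35a, mutated in some patients with Diamond-Blackfan anaemia, was at 433, 409 and 129 CPM in CPX 4, 6 and 8, 128, 83.7 and 106 CPM in MPX 2, 5 and 7, and 131, 165 and 224 CPM in EA 5, 7 and 8. For Rpl35a the lowest CPX library exceeded the highest MPX library by less than 1 CPM, and the difference was -1.61 (SE 0.45, edgeR adjusted p = 0.362). Rpl29, a large subunit protein, was at 491, 509 and 210.1 CPM in CPX 4, 6 and 8, 179.8, 138 and 159.7 CPM in MPX 2, 5 and 7, and 169.8, 196 and 295 CPM in EA 5, 7 and 8, and differed by -1.34 (SE 0.38, edgeR adjusted p = 0.362). In all 3 genes CPX 8 was the lowest CPX library and the nearest to MPX. The largest large subunit difference was that of Rpl12, -1.79 (SE 0.59), although CPX 8 lay between MPX 7 and MPX 2. The smallest was that of Rpl7l1, -0.34 (SE 0.25).

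By p, the small subunit differences were led by Rps27 at -2.91 (SE 0.82, edgeR adjusted p = 0.362). Rps6 was next by p, with -1.82 (SE 0.52, edgeR adjusted p = 0.362). Rps14, the gene whose loss marks a form of myelodysplasia, was at 1860.2, 1755 and 457 CPM in CPX 4, 6 and 8, 476, 321 and 391 CPM in MPX 2, 5 and 7, and 662, 683 and 955 CPM in EA 5, 7 and 8, with a difference of -1.78 (SE 0.52, edgeR adjusted p = 0.362). Here CPX 8 lay inside the MPX range while CPX 4 and CPX 6 were at least 3 times any MPX library. Rpsa differed by -1.86 (SE 0.55), Rplp0 by -1.47 (SE 0.49), Rplp1 by -0.96 (SE 0.55) and Rplp2 by -1.05 (SE 0.48). The smallest small subunit difference was -0.70 (SE 0.44), for Rps27l.

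Some cell type markers differed between these groups as well. All 7 B cell markers had a negative difference, with a median of -6.65, and their sums were 10.4, 3177 and 24.9 CPM in CPX 4, 6 and 8. In MPX the sums were 4.31 to 18.3 CPM, so CPX 4 lay within the MPX range and only CPX 6 stood far above it. MPX lay wholly below CPX in 0 of these 7. For the 5 plasma cell markers the median was -7.85, each lay wholly below CPX in MPX (7.71% of all genes did), and their sums were 3218, 22275 and 7954 CPM in CPX 4, 6 and 8. All 8 endothelial markers were higher in MPX, with a median of 0.56, and 3 of them lay wholly above CPX (8.46% of all genes). Their sums were 1038, 1168 and 1773 CPM in CPX 4, 6 and 8 and 1733, 2511 and 1679 CPM in MPX 2, 5 and 7, where CPX 8 was inside the MPX range. Of 15 adipocyte markers, 12 were higher in MPX and 3 lower, with a median of 0.40, and 2 lay wholly above CPX. The 9 macrophage markers were split, 5 higher and 4 lower, as were the 7 fibroblast and progenitor markers, 4 higher and 3 lower. The part of these cell types in the members' difference was not tested.

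The size and direction of this comparison depended on which CPX libraries entered it. Without CPX 8 the members' median was -1.68, and edgeR called 168 genes, among them 50 of the 77 members, all lower (2.5% of all genes were called lower). With CPX 8 as the only CPX library, a lone sample taken to vary as the EA and MPX libraries do, the median was 0.12 and 48 members were higher in MPX.

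EA and CPX, which share the CPX libraries with the comparison just given and the EA libraries with the first, had a smaller median difference. The members were lower in EA in 75 of 77, against 61% of all genes, and higher in 2, against 39%, with a median of -0.66 against -0.09. The median was -0.36 without CPX 4, -0.35 without CPX 6 and -1.03 without CPX 8. The EA libraries never lay wholly below or above CPX (0 of 77 members, against 5.08% of all genes lower and 2.1% higher), and CPX 8 was lower than most EA libraries. The edgeR test called 0 of 3958 genes (0%), and 1 member, Rpl29, was lower at an unadjusted p below 0.05 (2% of all genes were). DESeq2 called 5 genes and limma voom 0, with 0 members in either (DESeq2 called 0.0508% of all genes higher and 0.0762% lower). Rpl29 differed by -0.87 (SE 0.37, edgeR adjusted p = 0.997). Rpl21, a large subunit protein with a listed pseudogene, was at 362, 217 and 59.0 CPM in CPX 4, 6 and 8, 109, 79.2 and 92.4 CPM in MPX 2, 5 and 7, and 45.6, 107 and 101 CPM in EA 5, 7 and 8, and its difference of -1.33 (SE 0.59) was the largest of the large subunit. Rpl37 differed by -0.91 (SE 0.44). Rpl23a, at the exit of the peptide tunnel, differed least, by 0.12 (SE 0.56), and Rpl7a was, beside it, the only member higher in EA.

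Of the small subunit, Rps12 had the largest difference, -1.02 (SE 0.51), with 1039, 947 and 302 CPM in CPX 4, 6 and 8, 330.0, 161 and 272 CPM in MPX 2, 5 and 7, and 293, 307 and 526 CPM in EA 5, 7 and 8. EA 8 was the only EA library far above CPX 8. Rps21 differed by -0.98 (SE 0.55) and Rps27l by -0.82 (SE 0.44), and Rps16, whose tail reaches the decoding site, least, by -0.31 (SE 0.54). Rps6 differed by -0.79 (SE 0.51), Rpsa by -0.79 (SE 0.54) and Rplp0 by -0.69 (SE 0.48). With CPX 8 as the only CPX library, all 77 members were higher in EA, with a median of 0.81, so the direction of this comparison turned with the CPX libraries used.

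**Figure D2:**
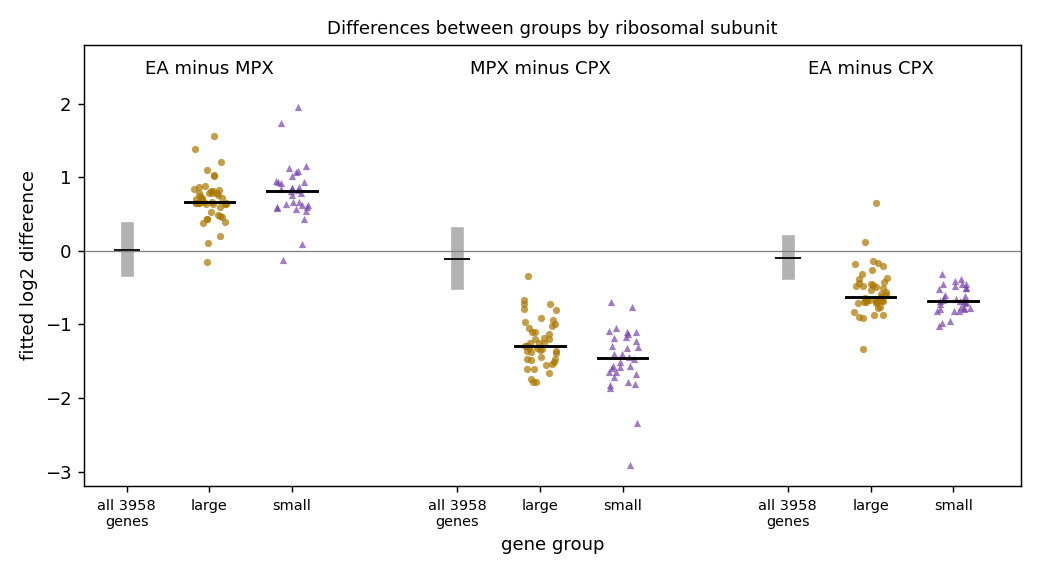
Fitted log2 difference (y axis) of each ribosomal protein gene in the 3 comparisons, large subunit as circles and small subunit as triangles, with bars at the medians and a grey box for the middle 50% of all 3958 genes. The large and small subunit medians are 0.66 and 0.82 for EA minus MPX, -1.29 and -1.46 for MPX minus CPX, and -0.63 and -0.68 for EA minus CPX.

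The 2 subunits moved together, and the small subunit medians lay further from 0, a gap that was not tested. For EA minus MPX the median difference was 0.66 over 45 large subunit genes and 0.82 over 32 small subunit genes, with EA wholly above MPX in 28 and 22 of them (21.5% of all genes). For MPX minus CPX the medians were -1.29 and -1.46, and MPX lay wholly below CPX in 9 and 6 (7.71% of all genes). For EA minus CPX they were -0.63 and -0.68. The middle 50% of the subunits overlapped in every comparison.

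The balance between subunits set MPX apart from both other groups. Summed large subunit counts divided by summed small subunit counts gave 1.18, 1.10 and 1.23 in CPX 4, 6 and 8, 1.33, 1.40 and 1.34 in MPX 2, 5 and 7, and 1.23, 1.24 and 1.21 in EA 5, 7 and 8. All 3 MPX libraries were above the other 6, and CPX 8 sat with EA. The means were 1.17 ± 0.0620 in CPX, 1.36 ± 0.0369 in MPX and 1.22 ± 0.0179 in EA (SD, n = 3). Such a ratio of counts depends on gene lengths and compares libraries, not the amounts of the subunits. Weighting each gene equally, the mean log2(CPM + 1) of large minus small subunit genes was -0.31 ± 0.0750 in CPX, -0.09 ± 0.0396 in MPX and -0.22 ± 0.0251 in EA (SD, n = 3). MPX again lay apart from the other 6 libraries, between -0.13 and -0.05 against -0.40 to -0.19. This score was formed over chosen members and was not tested. The 8 members that departed most from the common order of libraries, described below, were Rpl7a, Rpl7l1, Rpl17, Rpl21, Rps27, Rps27a, Rps27l and Rps27rt. Without these 8, left out after their values were seen, the MPX mean was -0.14 and the EA mean -0.25. MPX still lay apart, between -0.16 and -0.11.

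**Figure D3:**
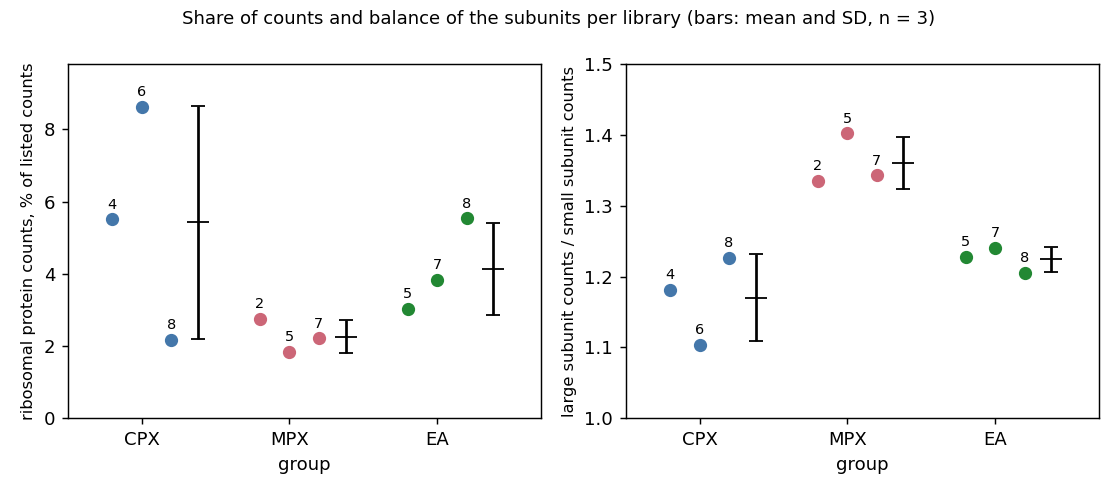
Share of listed counts in the 77 ribosomal protein genes (left, percent) and large over small subunit counts (right, axis from 1.0), 1 point per library labelled with its number, bars for mean and SD (n = 3). The share spans 2.17% to 8.62% within CPX, while the ratio in MPX, 1.33 to 1.40, lies above the other 6 libraries.

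Most members kept the common order of libraries closely. The SD over libraries of a gene's departure from the members' mean had a median of 0.194 on the log2 scale, was below 0.2 for 40 members and above 0.4 for 10. The 10 were Rps27, Rps27a, Rps27l, Rpl7a, Rpl21, Rpl7l1, Rps27rt, Rpl17, Rpl41 and Rpl23a, named here after their values were seen. The level in the highest library was between 4 and 6 times that in the lowest for 41 members, and below 3 times for 2. The fold ranged from 1.77 for Rpl7l1 to 23.1 for Rps27.

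Rps27 and the genes that share its name showed the widest spread. Rps27 (chr3:90212522-90213651) was at 872, 1026 and 111 CPM in CPX 4, 6 and 8, 122, 102 and 44.4 CPM in MPX 2, 5 and 7, and 208, 276 and 556 CPM in EA 5, 7 and 8. MPX 7 was the lowest and CPX 6 the highest, and CPX 8 lay within the MPX range. Its retrocopy Rps27rt (chr9:114982366-114982739) was at 179, 273 and 86.0 CPM in CPX 4, 6 and 8, 127, 50.4 and 138 CPM in MPX 2, 5 and 7, and 124, 101 and 112 CPM in EA 5, 7 and 8. In contrast to Rps27, the copy was higher in MPX 7 than in any EA library. Over the 341 aligned bases the 2 transcripts were identical, so how the authors' counting divided reads between them is uncertain. Rps27 took from 24.3% (MPX 7) to 83.2% (EA 8) of the sum of both. The sum was at 1051, 1299 and 197 CPM in CPX 4, 6 and 8, 249, 152 and 183 CPM in MPX 2, 5 and 7, and 332, 377 and 668 CPM in EA 5, 7 and 8. Summing brought the gene closer to the rest: the fold range was 8.53 in place of 23.1 and the departure SD 0.374 in place of 0.854. The start regions printed above differ before the start, while both open with a pyrimidine tract.

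Rps27l, a paralog known as a p53 target, did not show the common order. Rps27l (chr9:66946086-66949516) was at 243, 82.1 and 68.9 CPM in CPX 4, 6 and 8, 80.3, 77.8 and 85.4 CPM in MPX 2, 5 and 7, and 79.8, 61.7 and 81.5 CPM in EA 5, 7 and 8. Only CPX 4 stood out, and CPX 6, MPX and EA overlapped. Rpl7l1 (chr17:46773907-46782672), a paralog of Rpl7 found in ribosome precursors, was at 111, 110.1 and 62.7 CPM in CPX 4, 6 and 8, 76.6, 67.7 and 80.1 CPM in MPX 2, 5 and 7, and 78.9, 77.4 and 101 CPM in EA 5, 7 and 8. It kept the block's highest libraries, CPX 4 and CPX 6, with a narrow range. Its differences were 0.20 (SE 0.25) for EA minus MPX and -0.14 (SE 0.25) for EA minus CPX. Rps27rt differed by 0.09 (SE 0.47) between EA and MPX, the smallest of the small subunit.

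**Figure D4:**
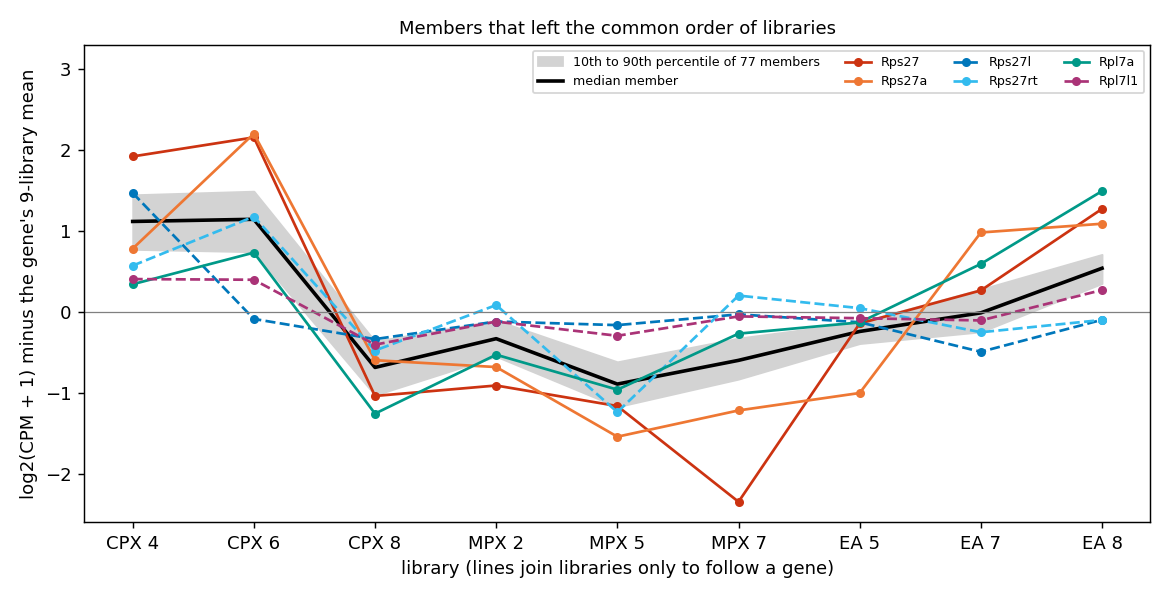
Level of 6 ribosomal protein genes in each library as log2(CPM + 1) minus the gene's 9-library mean (y axis), with the median member in black and the 10th to 90th percentile of 77 members in grey; lines only follow a gene. Rps27 reaches its minimum in MPX 7, where its retrocopy Rps27rt is above its own mean, and Rps27l is high only in CPX 4.

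Other members share sequence with listed copies. Rps12 and Rps12-ps3 were identical over 494 of 494 aligned bases, Rpl17 and its pseudogenes Rpl17-ps3 and Rpl17-ps10 over 99.6% and 99.3%, Rpl21 and Rpl21-ps15 over 99.4%, and Rpl14 and Rpl14-ps1 over 98.9%. Summing a gene with its copies lowered the departure SD from 0.262 to 0.130 for Rps12, from 0.477 to 0.215 for Rpl17 and from 0.533 to 0.298 for Rpl21, and raised it from 0.0592 to 0.0728 for Rpl14. Values of these 4 genes and of Rps27 alone are uncertain to that degree.

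Members with and without an annotated terminal pyrimidine tract had close medians in each comparison. In the GENCODE M21 transcripts, 21 of 77 members (27.3%) had a transcript that began with such a tract, against 248 of 3827 other listed protein-coding genes (6.48%). Counting a tract that began at the annotated start or up to 5 bases after it, the shares were 44.2% and 26.3%. Bases before the annotated start were not searched. The median EA minus MPX difference was 0.70 for the 21 members with a tract and 0.71 for the 56 without, and the median MPX minus CPX difference -1.39 and -1.29. Over the 248 other genes with a tract the medians were 0.04 and -0.14. The GENCODE starts of Rps6, Rplp2 and Rpl35a do not open with a tract, unlike the RefSeq starts printed above, so these 3 count among the 56 without, and the classes depend on the annotation. Annotated starts need not be the starts used in this tissue.

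Genes that work with the ribosome showed the same library order in part. Fau and Rack1, small subunit partners whose names fall outside the choice of members, were in step with them. Rack1, a scaffold protein on the small subunit, was at 1176, 1927 and 534 CPM in CPX 4, 6 and 8, 520.1, 346 and 424 CPM in MPX 2, 5 and 7, and 667, 778 and 1184 CPM in EA 5, 7 and 8, with differences of 1.03 (SE 0.48) for EA minus MPX and -1.49 (SE 0.49) for MPX minus CPX. Fau, which encodes a ubiquitin-like protein fused to a small subunit protein, differed by 0.69 (SE 0.48) and -1.17 (SE 0.48). Of 7 listed elongation factors and partners, 0 passed the edgeR threshold in any comparison. Their median was 0.54 for EA minus MPX, with 6 of 7 wholly above MPX (21.5% of all genes), and -0.82 for MPX minus CPX, with 4 of 7 lower at an unadjusted p below 0.05 (8.21% of all genes). Eef1b2, an exchange factor of elongation, differed by 0.83 and -1.45, and Tpt1, a growth-related protein, by 0.82 and -1.48.

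Initiation factors were less in step. Their 29 listed genes had a median of 0.09 for EA minus MPX and -0.42 for MPX minus CPX, where 10 were lower and 1 higher at an unadjusted p below 0.05 (8.21% and 4.98% of all genes). Eif3e, of the scaffold that prepares the small subunit, differed by -1.31 (SE 0.33) between MPX and CPX. The 13 nascent chain factors had medians of 0.05 and -0.34, though Naca, which binds chains as they leave the ribosome, differed by 0.59 and -1.51. Of 30 ribosome assembly genes 7 were listed, with medians of 0.18 and -0.60, and Npm1, an assembly chaperone of the nucleolus, differed by 0.86 and -1.51. Growth signalling genes such as Rptor, a subunit of mTORC1, did not share the pattern as a list, the medians of 10 listed genes being -0.07 and 0.14. In these lists 0 genes passed the edgeR threshold.

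Among the S6 kinases, Rps6ka3 differed in the direction opposite to the members' medians for EA minus MPX and MPX minus CPX, and in the same direction, by -0.33, for EA minus CPX. Rps6ka3, a kinase of the ERK pathway also called RSK2, was at 191, 224 and 309 CPM in CPX 4, 6 and 8, 356, 312 and 413 CPM in MPX 2, 5 and 7, and 195, 207 and 173 CPM in EA 5, 7 and 8. Every MPX library was above every EA and CPX library, while the members' mean was lowest in MPX 5 and CPX 8. Its difference was -0.91 for EA minus MPX (SE 0.25, edgeR adjusted p = 0.775) and 0.58 for MPX minus CPX (SE 0.25, edgeR adjusted p = 0.374). For EA minus MPX of Rps6ka3, DESeq2 gave an adjusted p = 0.0107, edgeR with EA and MPX alone gave an adjusted p = 0.0453, and limma voom gave an adjusted p = 0.798. The kinase of Rps6 itself downstream of mTORC1, Rps6kb1, differed by 0.05 between EA and MPX.

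Genes of mitochondrial ribosomes and the respiratory chain were highest in CPX 4 and below their mean in CPX 6. The 3 listed mitochondrial ribosomal proteins averaged 1.29 in CPX 4 and -0.58 in CPX 6, the 63 nuclear respiratory genes 1.33 and -0.61, and the 13 mitochondrially encoded transcripts 2.06 and -0.48. The cytosolic members, in contrast, were high in both libraries. Short genes also gave a different order: 238 other listed protein-coding genes no longer than the median member (1739 bases) averaged 0.72 in CPX 4 and -0.43 in CPX 6. Their median difference was -0.10 for EA minus MPX, where the members had 0.71, and -0.25 for MPX minus CPX. RNA quality was not measured in these files, and its part in the members' order was not tested.

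**Figure D5:**
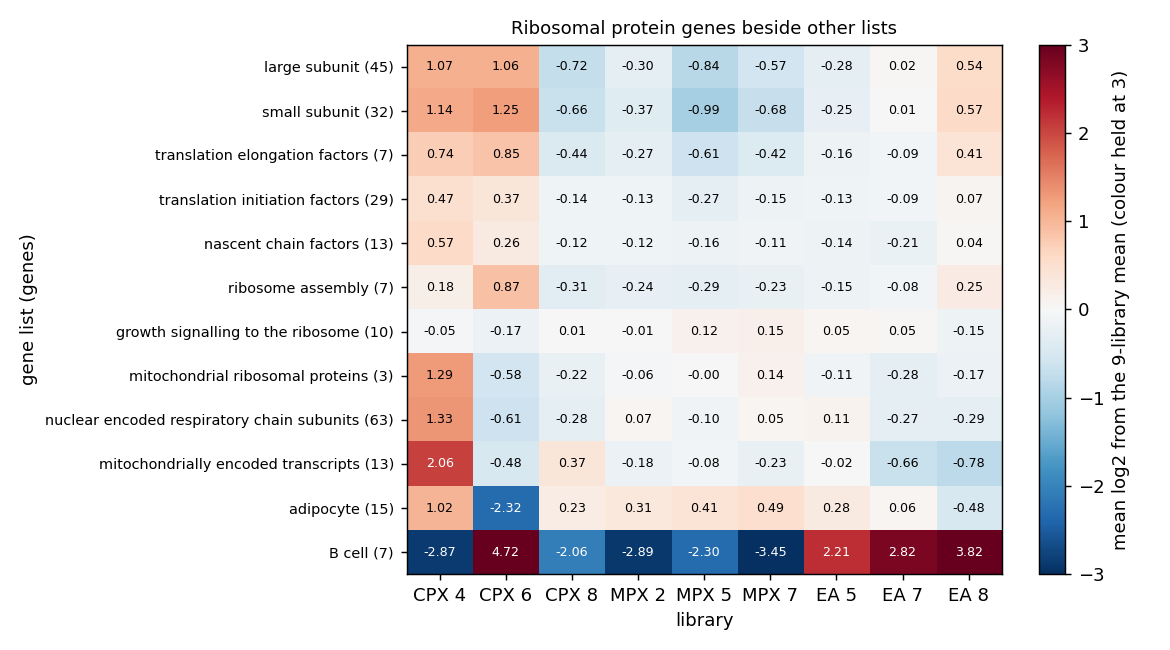
Mean level of each gene list in each library on the log2(CPM + 1) scale relative to the 9-library mean (colour, held at 3, with values printed), rows for lists with their gene numbers and columns for libraries. Both ribosomal subunits are above 1 in CPX 4 and CPX 6, whereas the respiratory, mitochondrial and adipocyte lists are above 1 in CPX 4 and below 0 in CPX 6.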

How the data were processed

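Total RNA of 9 adipose libraries was sequenced, and the authors deposited a single table of counts per gene with annotation columns. The submitters' processing notes name HISAT2 2.0.5 as the aligner and mm10 as the build. Neither the counter nor its annotation and use of strand is stated (not given in the sources used here), so reads of overlapping genes and of near-identical copies may have been divided between them. The gene length in bases comes from the same table as the authors deposited it. In 11 genes a name altered to a date was restored from the gene ID.

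All 3958 genes entered 1 edgeR 4.0.16 quasi-likelihood fit (R 4.3.3, limma 3.58.1) with a mean per group, TMM scaling, filterByExpr, which kept all genes, and robust estimation, with Benjamini-Hochberg adjustment over every gene in each of 3 comparisons. A fold or log2 difference is from that fit, and levels are log2(CPM + 1). The TMM factor was 0.753 in CPX 4 and 0.981 to 1.10 in the other 8 libraries. Replicates differed beyond counting noise, with a chi-square per degree of freedom of at least 71.5. The script was tested on simulated counts.

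The members and lists were chosen with earlier results of these data known. Named with values were Rplp0, Rplp1, Rplp2, Rpsa, Rps6 and paralog forms, in each comparison and subunit the 3 members with the smallest p and those with the largest and smallest difference, the 2 highest per kilobase in each subunit, and from each list genes among its 3 smallest p. Subunit balance, shares and start tracts were described without a test. GENCODE M21 transcripts were used for tracts, after the files were seen, because the promoter table held 74.0% of the members. Alternatives were DESeq2 1.42.0, limma voom, other scalings, no filter, each library left out, CPX 4 and CPX 6 left out, the compared groups alone and a replicate block. Leaving out the 8 members that departed most, and summing copies, were added after seeing the data.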

Additional observations from a re-analysis of the deposited data

How the results depend on the processing

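Of the values recomputed, 1270 single-gene or subunit values and 196 values that answer a comparison kept their direction and their side of the threshold. Among the single values, 70 changed sign, 36 newly passed the threshold and 9 changed in size. Among the values that answer a comparison, 4 changed sign and 16 changed in size. Many could hardly change: the fit without a filter equals the main fit, and without EA 5 the members' MPX minus CPX median stayed at -1.32. The count of genes past the edgeR threshold, 0 in each comparison, was 49 (EA minus MPX), 201 (MPX minus CPX) and 5 (EA minus CPX) with DESeq2, and members past it numbered 27 for MPX minus CPX. For EA minus MPX it was 84 with the compared groups alone and 80 without CPX 4 and CPX 6. Leaving out 1 library at a time gave 0 to 23 genes for EA minus MPX (23 without CPX 6), 0 to 168 genes and 0 to 50 members for MPX minus CPX (168 and 50 without CPX 8), and 0 to 12 genes for EA minus CPX (12 without CPX 6). The members' median ran from 0.47 to 0.88 for EA minus MPX, from -1.68 to -1.06 for MPX minus CPX and from -1.03 to -0.35 for EA minus CPX in these fits. It was -0.36 without CPX 4 and -0.35 without CPX 6 for EA minus CPX, and 0.47 without EA 8 for EA minus MPX. Without any scaling, the median of all genes moved to 0.11 for EA minus MPX and 0.10 for EA minus CPX, and the members' medians to 0.82 and -0.43.

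Without CPX 4 and CPX 6 together, which leaves fewer CPX libraries, values turned positive. For MPX minus CPX the members' median was 0.12, Rpl12 0.0091, Rpl7l1 0.28, Rplp1 0.74, Rplp2 0.34, Rps15 0.30, Rps27l 0.26, Rps27rt 0.31 and Fau 0.32. For EA minus CPX the members' median was 0.81, Rpl21 0.51, Rpl29 0.058, Rpl37 0.22, Rpl7l1 0.44, Rplp0 0.52, Rplp1 1.35, Rplp2 0.70, Rps12 0.30, Rps15 1.02, Rps16 1.41, Rps21 0.74, Rps27l 0.10, Rps27rt 0.38, Rps3a1 0.69, Rps6 0.64 and Rpsa 0.71. Leaving out 1 library, the EA minus MPX difference ran from -0.10 (without EA 8) to 0.21 for Rpl41 and from -0.27 (without MPX 5) to 0.31 for Rps27rt. The MPX minus CPX difference of Rps27l ran from -0.98 to 0.14 (without CPX 4). For EA minus CPX the range was -0.75 to 0.025 (without CPX 4) for Rplp1, -0.75 to 0.20 (without CPX 6) for Rps16, -0.34 (without CPX 8) to 0.50 for Rpl23a, and -0.0014 (without CPX 6) to 0.15 for the large minus small subunit median. Rpl7l1 was 0.073 for EA minus CPX without scaling. With medians over members, large minus small subunit levels were -0.45 in CPX, -0.26 in MPX and -0.38 in EA. Without the 8 members that departed most, the means were -0.14 in MPX and -0.25 in EA. The cause of these changes was not tested.

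EA and MPX share the replicate numbers 5 and 7, EA and CPX share 8, and MPX and CPX share 0 numbers. Deviations of the same-numbered libraries from their group means, over all genes, correlated at 0.0278, 0.119 and -0.507. With so few shared numbers, these values cannot show whether the numbers pair the libraries. With the replicate block, a fit with 1 residual degree of freedom in which CPX is tied to the other groups only through CPX 8 and EA 8, edgeR called 6 genes for EA minus MPX, the members' median was 0.61 and Rpl41 was -0.050. In that fit the members' medians of the other comparisons turned positive, with 0 genes past the threshold. The members' median for MPX minus CPX was 0.57, with 74 of 77 positive, against 0 of 77 in the main fit. Of the genes recomputed singly for this comparison, a part of the members and lists, those that changed sign were Eef1b2 0.46, Fau 0.73, Npm1 0.51, Rack1 0.24, Rpl12 0.41, Rpl29 0.19, Rpl35a 0.15, Rpl37 0.13, Rpl7l1 0.60, Rplp0 0.38, Rplp1 1.21, Rplp2 0.73, Rps14 0.14, Rps15 0.77, Rps27 0.49, Rps27l 0.46, Rps3a1 0.19, Rps6 0.16, Rpsa 0.33 and Tpt1 0.12. For EA minus CPX the median was 1.23, with 77 of 77 positive, against 2 of 77 in the main fit, and the large minus small subunit median was -0.0033. Of the genes recomputed singly here, those that changed sign were Rpl21 0.78, Rpl29 0.49, Rpl37 0.72, Rpl7l1 0.68, Rplp0 0.98, Rplp1 1.78, Rplp2 1.07, Rps12 0.80, Rps15 1.45, Rps16 1.80, Rps21 1.26, Rps27l 0.24, Rps27rt 0.38, Rps3a1 1.08, Rps6 1.07 and Rpsa 1.21.

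The table lists abundant genes only, so members below its lower limit would not be seen, and depth is not known.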
